A study of Homo sapiens with 12 samples.

Results

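Histone lysine and arginine residues are methylated by a set of methyltransferases and cleared by 2 families of demethylases. The expression of 43 of these enzymes was examined in MDA-MB-231, an established human line of triple-negative breast cancer (TNBC). The 43 genes were chosen by symbol as the main methyltransferases and demethylases of H3K4, H3K9, H3K27, H3K36, H3K79 and histone arginine, together with the core subunits of polycomb repressive complex 2 (PRC2). Each symbol occurred once in both deposited tables under the same identifier, so the 43 genes stand among 60558 genes that the tables share. The list holds 26 methyltransferase genes, complex subunits included, and 17 demethylase genes. All 43 passed the filter on low counts in both experiments.

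RNA was sequenced from 12 libraries in 2 experiments. In the first, 3 negative control (NC) libraries of WT cells were set against 3 libraries of cells with NONO knockdown (NONO_KD). In the second, another 3 NC libraries of WT cells were set against 3 libraries with PKM2 knockdown (PKM2_KD). By the labels the groups differ only in the knockdown, all libraries come from this 1 cell line, and no library serves both experiments. The study's methods use the name NC for the control of transient siRNA transfection and another name for that of shRNA, and they do not say outright which made these cells. NONO is an RNA- and DNA-binding protein of the nucleus. PKM2 is a pyruvate kinase isoform made from the PKM gene. The comparisons address which transcripts depend on each protein in TNBC cells.

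Histone methylation is read according to its position. H3K4 and H3K36 methylation mark active promoters and gene bodies, whereas H3K9 and H3K27 methylation mark silenced chromatin. Lysine methyl groups are set mostly by SET-domain enzymes and by DOT1L. They are removed by flavin-dependent amine oxidases of the KDM1 family or by Jumonji (JmjC) dioxygenases, which use iron and 2-oxoglutarate. Methyl groups come from S-adenosylmethionine. EZH2, the catalytic subunit of PRC2, is often abundant in dividing and cancer cells, whereas its paralog EZH1 is better known from resting tissue.

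Library totals ran from 19861762 to 20981712 estimated counts in the NONO experiment and from 24097948 to 28455268 in the PKM2 experiment. NONO went to -2.57 on the log2 scale in its own experiment and PKM to -3.32 in the other. The counts of PKM do not separate its isoforms. The mesenchymal markers VIM and CD44 were at 355 CPM or more in every library (CPM, counts scaled to a common library size with TMM factors), whereas the luminal receptors ESR1 and PGR stayed at or below 0.436 CPM and CDH1 at or below 0.086 CPM. FN1, a further mesenchymal marker, fell by 1.70 on the log2 scale after PKM2 knockdown. Markers of other cell types (PTPRC, PECAM1 and ALB) summed to between 0.903 and 3.29 CPM. A pair of libraries stood apart from their replicates. NC library 1 in the NONO experiment differed from the other 2 by a chi-square of 8.9 to 11.1 per degree of freedom over genes, against 2.51 between those 2. The third PKM2_KD library differed from its replicates by 11.2 to 13.2, against 3.43 between them. In the PKM2 experiment, the genes highest in GC content (the top of 5 equal groups) lay at median log2 deviations of 0.10 to 0.14 in NC libraries and of -0.14, -0.12 and -0.05 after knockdown.

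PKM2 knockdown moved many more of the 43 enzymes by a sizeable step than NONO knockdown did, and it did so in a transcriptome that was widely changed. After NONO knockdown, 20 of the 43 enzymes were called at an adjusted P below 0.05 (edgeR's quasi-likelihood test, Benjamini-Hochberg adjustment over all genes tested), 4 lower and 16 higher. Over the 14832 genes tested, 33.4% were called, 17.2% lower and 16.2% higher. Only SETD7 and KDM2A also passed a fold of 1.5, a step that 7.94% of all genes took. After PKM2 knockdown, 27 of the 43 were called, 12 lower and 15 higher, against 68.4% of the 15524 genes tested (34.7% lower and 33.6% higher). Of these, 16 passed a fold of 1.5, 8 in each direction, against 38.5% of all genes. The share of enzymes called after PKM2 knockdown, 62.8%, was thus close to that of all genes. The median log2 fold change of the 43 was 0.08 after NONO knockdown and 0.03 after PKM2 knockdown, beside -0.01 for all genes in each experiment.

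The enzymes not called after NONO knockdown numbered 23 and had log2 fold changes from -0.34 to 0.16. Those not called after PKM2 knockdown numbered 16 and ran from -0.24 to 0.17. Enzymes called in neither experiment were KMT2A, KMT2B, KMT2C, KMT2D, SETD1B, NSD1, NSD3, KDM1A and KDM4B, 9 in all. Only 4 of the 20 calls after NONO knockdown (SETD7, SUV39H2, KDM2A and PHF8) were made under every one of 15 alternatives. Tests on TPM values (a share of transcripts, corrected for gene length) called 4 to 6 enzymes there, against 6.21% to 19.3% of all genes. After PKM2 knockdown, 17 of the 27 calls were made under every alternative. Without NC library 1 of the NONO experiment 25 enzymes were called there, 5 lower and 20 higher, against 41.2% of all genes. The calls gained were those of EED (0.19), SUZ12 (0.16), SUV39H1 (0.20), KDM5A (0.13), KDM6A (-0.19) and KDM7A (-0.51), and that of KDM1B (-0.15) was lost. After PKM2 knockdown, leaving out the third PKM2_KD library gained the calls of KMT2D (0.13), SETD1A (0.15), SETD1B (0.15), NSD1 (0.14), KDM1A (-0.12), KDM3A (0.17) and KDM6B (0.27) and lost that of PHF8 (-0.09). Without this library 33 enzymes were called, 12 lower and 21 higher, against 68.3% of all genes. With trends of gene length and GC content taken out 33 were called, 11 lower and 22 higher, against 70.1% of all genes. The p-values measure the spread between repeats, which the labels do not describe as separate cultures. In bulk RNA of a culture, a lower level in each cell cannot be told apart from fewer cells that carry the transcript.

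**Figure D1:**
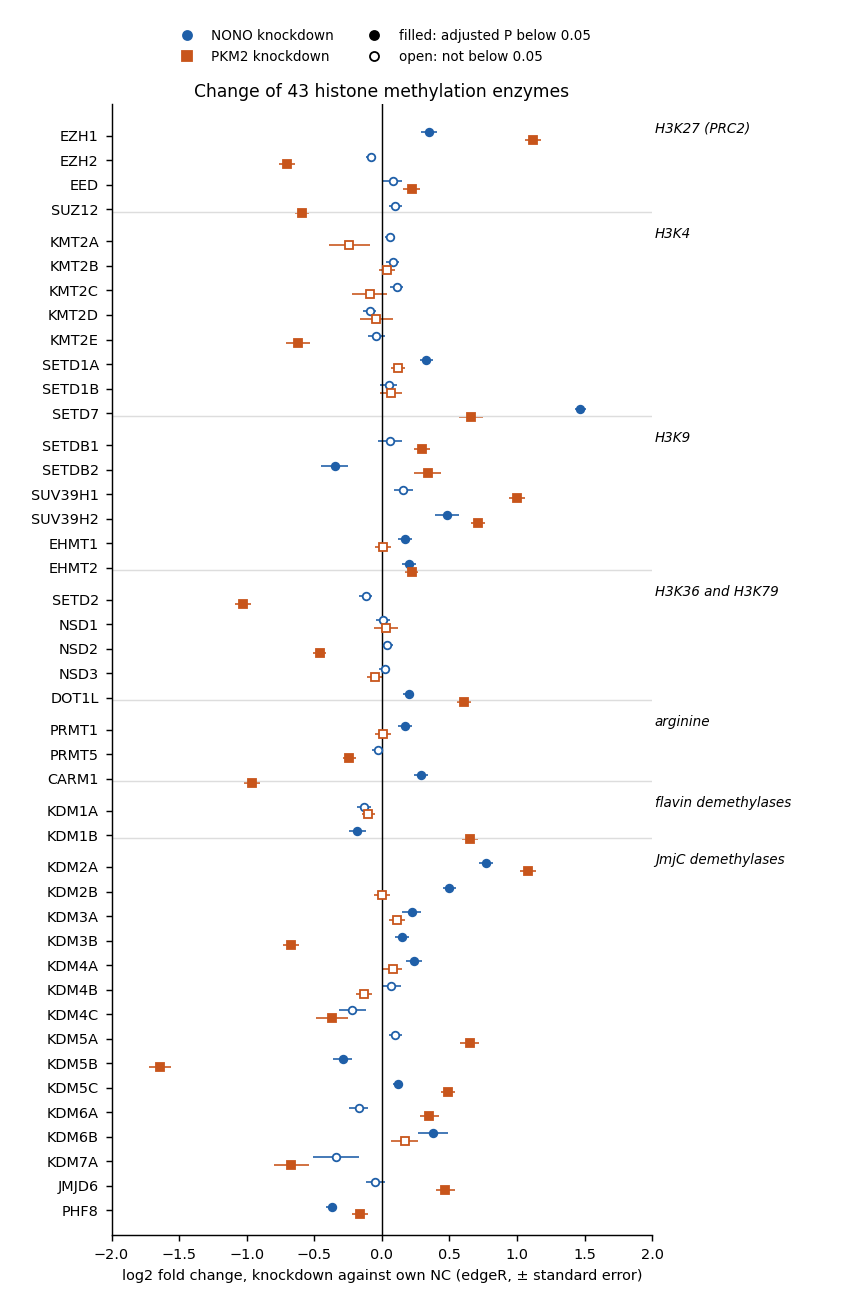
Log2 fold change (x axis) of each of the 43 enzymes (y axis, grouped by target residue or enzyme family) after NONO knockdown (circles) and PKM2 knockdown (squares), each against its own NC libraries, with the SE as a bar; filled symbols passed an adjusted P below 0.05. SETD7 at 1.47 is the farthest point after NONO knockdown, and KDM5B at -1.64 the farthest after PKM2 knockdown.

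Levels between genes were compared in TPM. In NC libraries the 43 enzymes spanned a wide range, from KDM7A at 2.16 ± 0.554 TPM to PRMT1 at 397 ± 23.6 TPM in the NONO experiment (SD, n = 3). PRMT1, the main type I arginine methyltransferase, was the highest of the 43 in all 4 groups. NSD2 (158 ± 4.09 TPM) and PRMT5 (147 ± 7 TPM) came next, and no other enzyme had a mean of 100 TPM or more. In the NC libraries of the PKM2 experiment their order was reversed, with PRMT5 at 167 ± 1.27 TPM and NSD2 at 135 ± 4.41 TPM. NSD2 dimethylates H3K36, and PRMT5 is the main symmetric arginine methyltransferase. At the low end stood KDM7A, KDM4C, SETDB2 and KDM6B, whose NC means lay between 2.16 and 5.94 TPM in the NONO experiment and between 2.26 and 5 TPM in the PKM2 experiment. Among neighbours in the order of levels, the ranges of 30 of 42 pairs overlapped in NC libraries of either experiment, so the order of most neighbours is not fixed. The median enzyme was at 25.8 TPM in the first NC group and at 22.3 TPM in the second.

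KDM6A, the H3K27 demethylase also called UTX, had the widest gap in TPM between experiments beside like CPM, and it was picked for this after its values were seen. Its NC libraries held 10.3, 9.26 and 12.1 TPM in the NONO experiment but 49.6, 63.6 and 44.0 TPM in the PKM2 experiment. Its CPM were alike in both, at 30.2 ± 1.4 and 31.5 ± 2.31 (SD, n = 3 each). The ratio of CPM to TPM, which follows the transcript length assigned to a gene, differed 3.85-fold between the experiments for KDM6A and at most 1.52-fold, for EZH1, among the other 42 enzymes. The plot of levels in controls shows this gap.

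**Figure D2:**
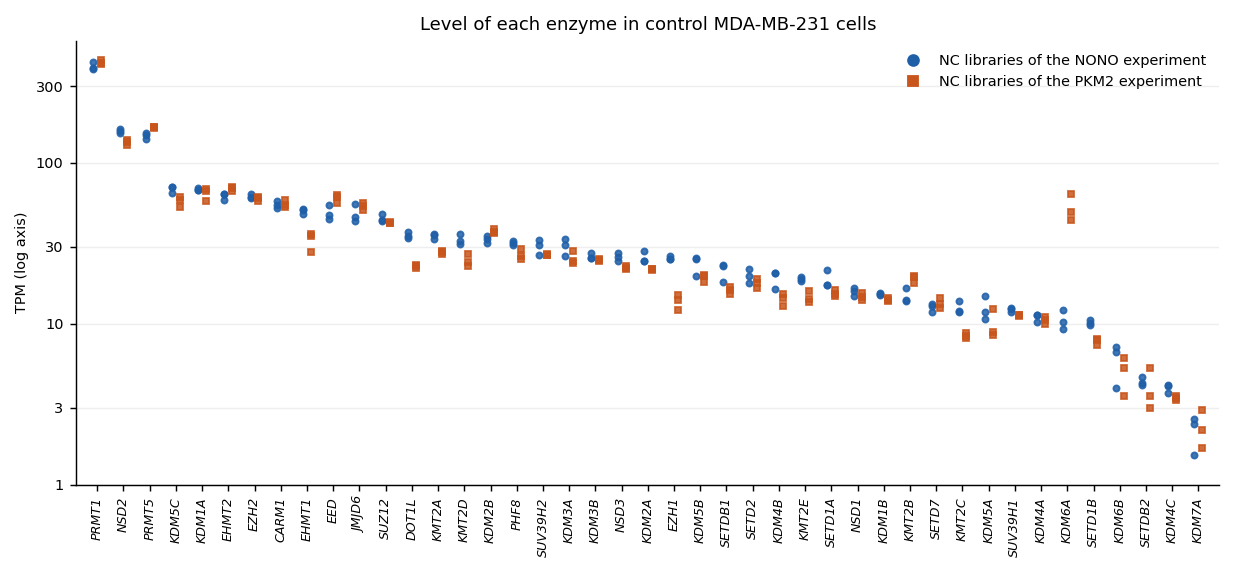
TPM on a log axis (y axis) of each enzyme (x axis, in the order of its mean in the first NC group) in the 3 NC libraries of the NONO experiment (circles) and the 3 of the PKM2 experiment (squares). PRMT1 is highest, with means of 397 and 421 TPM, and KDM6A, with means of 10.5 and 52.4 TPM, has the widest gap between experiments.

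Transcripts of the PRC2 core moved in opposite directions after PKM2 knockdown. EZH1 rose, whereas EZH2 and SUZ12 fell. EZH1 (ENSG00000108799, chromosome 17 of GRCh38 from 42700275 to 42745049 in GENCODE 29) was at 26.3, 27.9 and 27.7 CPM in NC libraries and at 62.7, 58.1 and 57.1 CPM after PKM2 knockdown. EZH2 (ENSG00000106462, chromosome 7 from 148807383 to 148884321) was at 108, 108 and 103 CPM and then at 61.5, 65.6 and 68.8 CPM. For SUZ12, the scaffold of the complex (ENSG00000178691, chromosome 17 from 31937018 to 32001045), all 3 NC libraries gave 128 CPM, and the knockdown libraries gave 87.7, 86.5 and 80.5 CPM. In none of these genes did the NC and knockdown libraries overlap. The log2 fold changes were 1.12 (standard error, SE, 0.06, adjusted P = 1.92e-08) for EZH1, -0.70 (0.06, adjusted P = 4.07e-07) for EZH2 and -0.59 (0.05, adjusted P = 7e-07) for SUZ12. EED, the subunit that binds trimethylated H3K27, had 0.22 (adjusted P = 0.00421), a call that tests on TPM and the length and GC correction did not make. In TPM, the ratio of EZH1 to EZH2 went from 0.230 ± 0.0252 to 0.736 ± 0.0634 (SD, n = 3 each), so that EZH1 came nearer to EZH2 but did not pass it. In the NC libraries of the NONO experiment the same ratio was 0.413 ± 0.0221. The CPM per TPM of EZH1 differed 1.52-fold between the experiments. Over the alternatives its log2 change after PKM2 knockdown ran from 0.79 to 1.15.

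After NONO knockdown EZH1 went from 34.3, 36.4 and 37.4 CPM to 45.1, 46.7 and 45.7 CPM, which is a step of 0.35 in log2 units (SE 0.06, adjusted P = 0.000931). This rise was seen in counts only. In TPM the groups overlapped (25.5 ± 0.707 against 26.6 ± 1.05, SD, n = 3 each), and the call was lost in all 3 tests on TPM. EZH2 (-0.08), EED (0.08) and SUZ12 (0.10) did not pass the test after NONO knockdown with all libraries. Without NC library 1, EED (0.19, adjusted P = 0.00647) and SUZ12 (0.16, adjusted P = 0.00131) did. The pseudogene SUZ12P1, which shares sequence with SUZ12, fell with it after PKM2 knockdown (log2 fold change -0.65, adjusted P = 0.00126), and reads that fit both genes may have been split between them, since the counts are estimates. It held 8.54 to 11.7 CPM in the NC libraries of that experiment. No count was listed for EZH2P1 in any library.

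The promoters of the PRC2 genes that moved are shown with those of KDM1B and KDM5B, described further on, because they let opposite changes be set beside the sequence at the start sites. They come from RefSeq on GRCh38.p14 and run from 250 bases before to 50 after a start site (the first one listed where a gene has several), 5′ to 3′ on the strand of the gene. Promoters were found for 39 of the 43 enzymes, not for SETD1B, NSD3, DOT1L and JMJD6. Capitals mark matches, on either strand, to 4 words of the E2F motif and to the NF-Y word CCAAT. The first E2F word is TTCCCGC, the next one searched is TTGGCGC, another form of it is TTCGCGC, and the last one searched is TTGCCGC. EZH2 (chr7:148884242-148884541, minus strand) holds 1 E2F word and 4 CCAAT words, SUZ12 (chr17:31936757-31937056, plus strand) 1 of each, EZH1 (chr17:42744991-42745290, minus strand) 1 E2F word, KDM1B (chr6:18155172-18155471, plus strand) 3 E2F words, and KDM5B (chr1:202808372-202808671, minus strand) none of either.
EZH2: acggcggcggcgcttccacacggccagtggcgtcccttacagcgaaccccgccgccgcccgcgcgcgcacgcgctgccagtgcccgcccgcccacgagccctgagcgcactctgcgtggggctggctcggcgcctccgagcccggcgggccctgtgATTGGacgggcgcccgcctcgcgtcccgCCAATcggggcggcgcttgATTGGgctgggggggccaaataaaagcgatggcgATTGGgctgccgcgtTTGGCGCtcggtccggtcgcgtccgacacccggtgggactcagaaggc
SUZ12: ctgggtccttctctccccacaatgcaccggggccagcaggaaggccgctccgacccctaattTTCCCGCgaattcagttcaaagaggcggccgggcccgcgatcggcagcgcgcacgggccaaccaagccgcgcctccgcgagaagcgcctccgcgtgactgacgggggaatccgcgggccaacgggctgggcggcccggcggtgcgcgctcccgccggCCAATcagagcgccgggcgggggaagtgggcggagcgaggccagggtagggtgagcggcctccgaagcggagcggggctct
EZH1: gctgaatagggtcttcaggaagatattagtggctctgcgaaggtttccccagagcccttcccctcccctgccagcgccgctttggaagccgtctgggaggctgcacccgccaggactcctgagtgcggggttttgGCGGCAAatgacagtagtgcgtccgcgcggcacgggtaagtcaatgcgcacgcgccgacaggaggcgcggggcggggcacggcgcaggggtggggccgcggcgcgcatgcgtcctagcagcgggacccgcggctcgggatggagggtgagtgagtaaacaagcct
KDM1B: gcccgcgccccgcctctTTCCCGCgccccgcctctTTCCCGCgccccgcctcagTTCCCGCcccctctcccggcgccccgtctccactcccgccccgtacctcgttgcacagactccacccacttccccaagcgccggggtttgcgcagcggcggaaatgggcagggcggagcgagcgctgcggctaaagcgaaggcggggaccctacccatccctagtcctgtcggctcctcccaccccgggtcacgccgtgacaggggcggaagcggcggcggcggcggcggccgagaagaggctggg
KDM5B: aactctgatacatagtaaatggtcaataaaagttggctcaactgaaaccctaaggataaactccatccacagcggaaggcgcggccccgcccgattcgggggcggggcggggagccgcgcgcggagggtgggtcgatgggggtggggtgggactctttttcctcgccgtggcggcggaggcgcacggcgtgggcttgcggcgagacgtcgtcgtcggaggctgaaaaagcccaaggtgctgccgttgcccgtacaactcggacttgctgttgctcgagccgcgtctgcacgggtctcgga

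No marked words overlapped in these 5 windows. Of all 35116 promoters searched, which were not matched to the enzymes in GC content, 13% hold an E2F word and 34.6% hold CCAAT. An E2F word was found in 4 of the 12 enzymes called lower after PKM2 knockdown (EZH2, SUZ12, KMT2E and NSD2), in 2 of the 13 called higher that have a promoter (EZH1 and KDM1B) and in 1 of 14 not called (KDM1A). CCAAT was found in 5, 3 and 5 of these same groups. The 3 words of KDM1B lie in repeats of 1 short unit. E2F1 itself, an activator of S-phase genes, stood at -1.22 (PKM2 knockdown) and 0.45 (NONO knockdown) in log2 units. A part of E2F1 in the changes of these enzymes was not tested. A match describes letters in a window and is not evidence of binding.

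Among the H3K4 enzymes, KMT2A to KMT2D and both SETD1 methyltransferases were not called after PKM2 knockdown, and SETD7 and KMT2E were. With trends of length and GC content taken out, KMT2B (0.31, adjusted P = 0.000457), KMT2D (0.25, adjusted P = 0.0192), SETD1A (0.39, adjusted P = 4.33e-06) and SETD1B (0.34, adjusted P = 0.000252) were called higher as well. SETD7 (ENSG00000145391, chromosome 4 from 139495941 to 139606699), which monomethylates H3K4 and many other proteins, gave the largest change of the 43 after NONO knockdown. It went from 64.2, 64.0 and 63.1 CPM to 171, 177 and 182 CPM, which is a step of 1.47 in log2 units (SE 0.04, adjusted P = 3.66e-09). After PKM2 knockdown it went from 61.0, 59.5 and 61.0 CPM to 102, 105 and 80.7 CPM (0.66, SE 0.09, adjusted P = 2.65e-05). The NC groups were alike and every knockdown library lay above them, with the third PKM2_KD library the lowest. Without that library the value was 0.78. The rise after NONO knockdown exceeded that after PKM2 knockdown, with a difference of -0.82 (SE 0.10, adjusted P = 3.51e-06).

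KMT2E, a SET-domain protein that binds H3K4 methylation and whose own activity is in doubt, went the other way. It was at 64.8, 67.2 and 63.2 CPM in NC libraries and at 47.9, 43.7 and 35.2 CPM after PKM2 knockdown (-0.62, SE 0.09, adjusted P = 8.55e-05). The groups did not overlap. After NONO knockdown its log2 fold change was -0.04. SETD1A, the catalytic subunit of a COMPASS complex, was called higher after NONO knockdown (0.33, adjusted P = 0.000343) but not in tests on TPM. KMT2B and SETD1B had log2 fold changes of 0.08 and 0.05 there, which did not pass.

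KMT2A, KMT2C and KMT2D, which methylate H3K4 at promoters and enhancers, and NSD1, an H3K36 methyltransferase, are described because 1 library decided their values, and they were picked after those values were seen. KMT2A was at 214, 211 and 210 CPM in NC libraries and at 202, 213 and 125 CPM after PKM2 knockdown. KMT2C was at 63.7, 60.9 and 60.3 CPM and then at 63.1, 67.9 and 43 CPM, and KMT2D was at 156, 146 and 145 CPM and then at 163, 162 and 109 CPM. In each, the first 2 knockdown libraries lay near or above the NC range and the third far below it. With all libraries the log2 fold changes were -0.24 (SE 0.15) for KMT2A, -0.09 (0.13) for KMT2C and -0.04 (0.12) for KMT2D. Without the third PKM2_KD library they were -0.02, 0.09 and 0.13, of which only that of KMT2D passed (adjusted P = 0.01). NSD1 moved likewise, from 0.03 to 0.14 (adjusted P = 0.0189).

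The third PKM2_KD library was lower the longer the gene. Over the 43 enzymes, the log2 ratio of its CPM to the mean of the other 2 PKM2_KD libraries went with the log2 length in the deposited table at Pearson's r = -0.82 and Spearman's rho = -0.79, a description over 43 genes of the same 3 libraries. The 10 longest enzymes, of 7652 bases or more, had a median ratio of -0.30, and all 10 were below 0. The 10 shortest, of 4129 bases or less, had a median of 0.04. Over all genes tested, genes of 5163 bases or more lay at a median deviation of -0.13 in this library and those of 1544 bases or less at 0.13, whereas the other 5 libraries of the experiment stayed between -0.04 and 0.04.

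**Figure D3:**
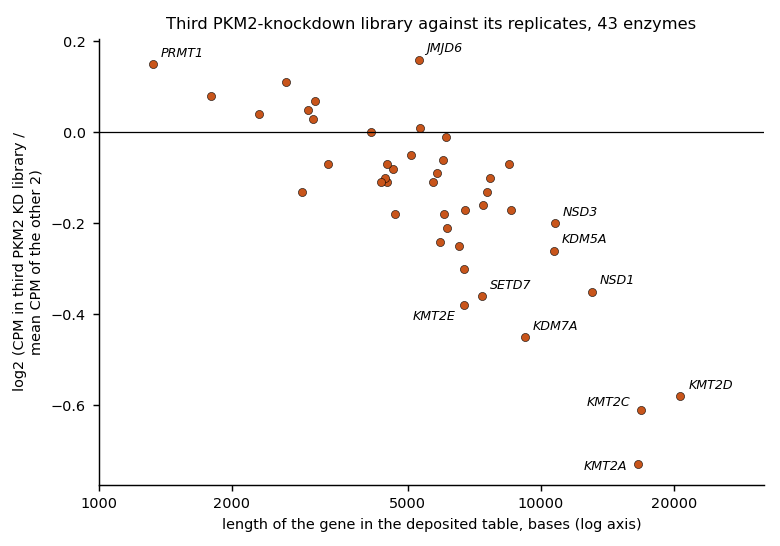
Log2 ratio of the CPM in the third PKM2_KD library to the mean CPM of the other 2 (y axis) against the length of each of the 43 enzymes in bases (x axis, log axis). The lowest points are KMT2A at -0.73, KMT2C at -0.61 and KMT2D at -0.58, and the short genes EZH2 and PRMT1 lie at 0.11 and 0.15.

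The H3K9 methyltransferases moved upwards where they passed the test after PKM2 knockdown. Of 6, 5 were called higher and none lower, and the sixth, EHMT1, stood at 0.01. Over all genes 33.6% were called higher. The clearest were both SUV39H enzymes, which trimethylate H3K9 in constitutive heterochromatin. SUV39H1 (ENSG00000101945, chromosome X from 48695554 to 48709012) went from 20, 19.5 and 20.4 CPM to 40.7, 37.9 and 40.7 CPM, which is a step of 1.00 in log2 units (SE 0.06, adjusted P = 6.76e-08). SUV39H2 (ENSG00000152455, chromosome 10 from 14878820 to 14904315) went from 47.0, 46.3 and 46.9 CPM to 77.6, 74.7 and 77.7 CPM (0.71, SE 0.05, adjusted P = 1.72e-07). Replicates lay close together and the groups far apart. SETDB1, which silences endogenous retroviruses, had 0.30 (adjusted P = 0.00117), SETDB2 0.34 (adjusted P = 0.0126) and EHMT2, also called G9a, 0.22 (adjusted P = 0.00215). The last 2 were not called in tests on TPM.

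After NONO knockdown the H3K9 group was split. SUV39H2 rose from 65.6, 48.0 and 58.9 CPM to 79.1, 78.1 and 83.1 CPM (0.48, SE 0.09, adjusted P = 0.00193). Its NC libraries were spread widely but all lay below the knockdown libraries. SUV39H1 went from 23.5 ± 1.15 to 26.2 ± 0.443 CPM (SD, n = 3 each), which did not pass (0.16, adjusted P = 0.112) unless NC library 1 was left out (0.20, adjusted P = 0.0375). SETDB2, a low gene, fell from 11.5, 11.6 and 11.3 CPM to 8.58, 9.46 and 8.95 CPM (-0.35, SE 0.10, adjusted P = 0.0187), whereas after PKM2 knockdown it was at 12.7, 11.6 and 10.5 CPM against 9.42, 9.53 and 8.68 CPM. The fall of SETDB2 was lost in 7 of 15 alternatives. EHMT1 (0.17) and EHMT2 (0.20) were called higher after NONO knockdown, in counts but not in TPM.

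For H3K36 and H3K79 the main changes again followed PKM2 knockdown. SETD2 (ENSG00000181555, chromosome 3 from 47016429 to 47163967), the enzyme that trimethylates H3K36, fell from 93.9, 92.4 and 89.9 CPM to 46.7, 46.9 and 41.5 CPM. In log2 units this step was -1.03 (SE 0.06, adjusted P = 3.17e-08), and the groups were far apart. NSD2 fell from 592 ± 9.21 to 431 ± 24.3 CPM (SD, n = 3 each, -0.46, adjusted P = 6.62e-06). NSD3 had -0.05 and did not pass. DOT1L, the H3K79 methyltransferase, rose from 119, 124 and 129 CPM to 196, 191 and 180 CPM (0.61, SE 0.05, adjusted P = 7.93e-07). After NONO knockdown SETD2 (-0.12), NSD1 (0.01), NSD2 (0.04) and NSD3 (0.02) did not pass. DOT1L went from 168, 166 and 172 CPM to 197, 191 and 194 CPM (0.20, SE 0.04, adjusted P = 0.00246), a call not made in TPM.

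Among the arginine methyltransferases CARM1 stood out. CARM1 (ENSG00000142453, chromosome 19 from 10871513 to 10923070) methylates H3 arginines as a transcriptional coactivator. It fell from 83.7, 89.4 and 93.4 CPM to 45.1, 47.8 and 44.2 CPM after PKM2 knockdown, which is a step of -0.96 in log2 units (SE 0.06, adjusted P = 5.8e-08). After NONO knockdown it went the other way, from 99.5, 92.8 and 91.5 CPM to 113, 117 and 116 CPM (0.29, SE 0.05, adjusted P = 0.000804). The libraries did not overlap in either experiment. PRMT5 fell with PKM2 knockdown, from 183 ± 4.15 CPM to 155 ± 5.13 CPM (3 libraries each, SD, -0.24, adjusted P = 0.000656) and had -0.03 after NONO knockdown. PRMT1 had 0.01 after PKM2 knockdown and 0.17 (adjusted P = 0.0187) after NONO knockdown, the latter lost in 7 of 15 alternatives.

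The protocol in the labels names no step that keeps the strand, so overlapping genes on the opposite strand may share reads with some enzymes. The exons of CARM1 overlap those of YIPF2 over 886 of 4455 bases, and the log2 change of YIPF2 with PKM2 knockdown was -0.04. DOT1L overlaps PLEKHJ1 over 529 of 11272 bases, and PLEKHJ1 rose by 0.54 after PKM2 knockdown. SUV39H1 overlaps the antisense gene AC231533.1 over 685 of 3368 bases, which held at most 0.0794 CPM. SUV39H2 overlaps DCLRE1C over 159 of 3565 bases and KDM5A overlaps CCDC77 over 182 of 12091 bases, and both partners had 0.24 after PKM2 knockdown. PRMT5 overlaps PRMT5-AS1 over 938 of 3467 bases, and this antisense gene held at most 0.717 CPM. After NONO knockdown YIPF2 went from 27.8 ± 2.76 to 33 ± 1.42 CPM and PLEKHJ1 from 35.1 ± 1.7 to 40.4 ± 1.83 CPM (SD, n = 3 each). In neither gene did the NC and knockdown libraries overlap, whereas in DCLRE1C and CCDC77 they did. SETDB1 overlaps CERS2 over 948 of 7093 bases. In the NC libraries of the PKM2 experiment CERS2 held 225 ± 3.49 CPM beside 27.3 ± 0.634 CPM for SETDB1. After PKM2 knockdown CERS2 held 208 ± 9.31 CPM. On the same strand, KDM4A overlaps AL451062.3 over 2077 of 5172 bases and KMT2A overlaps AP001267.5 over 5599 of 31305 bases. The share of exon bases that overlap does not give the share of reads. The part of shared reads in the changes of the enzymes was not tested.

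Of the flavin demethylases, KDM1B was called in both experiments and KDM1A in neither. KDM1A (LSD1), the demethylase of the CoREST complex, did not pass in either experiment (-0.13 after NONO knockdown and -0.10 after PKM2 knockdown), although 3 of 15 alternatives called it lower after PKM2 knockdown. KDM1B (LSD2), which works in gene bodies, rose from 41.8, 42.7 and 41.0 CPM to 64.5, 70.7 and 61.9 CPM after PKM2 knockdown (0.65, SE 0.06, adjusted P = 2.05e-06). After NONO knockdown it was at 40.3, 42 and 45.2 CPM against 49.6, 47.7 and 47.0 CPM (-0.18, SE 0.06, adjusted P = 0.0398), a call that 13 of 15 alternatives did not make. All PKM2_KD libraries lay far above their NC libraries, whereas the step after NONO knockdown was small. In TPM, KDM1B stood at 0.220 ± 0.0251 of KDM1A in the NC libraries of the PKM2 experiment and at 0.378 ± 0.0327 after knockdown (SD, n = 3 each).

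The JmjC demethylases held both the strongest fall and one of the strongest rises. KDM5B (ENSG00000117139, chromosome 1 from 202724495 to 202809470), an H3K4 demethylase known from luminal breast cells, gave the largest change of the 43 after PKM2 knockdown. It fell from 72.6, 74.6 and 73.6 CPM to 27.3, 22.7 and 21.0 CPM, which is a step of -1.64 in log2 units (SE 0.08, adjusted P = 1.12e-08). After NONO knockdown it was at 76.7, 76.4 and 73.1 CPM against 80, 100 and 96.9 CPM (-0.29, SE 0.07, adjusted P = 0.0105). This call was made in 12 of 15 alternatives. The NC library nearest to the knockdown libraries was the first one, which stands apart from its replicates. KDM5A, its paralog, moved in the opposite direction after PKM2 knockdown, from 50.7, 53.6 and 52.2 CPM to 87.8, 86.1 and 72.4 CPM (0.65, SE 0.07, adjusted P = 7.97e-06). The ratio of KDM5A to KDM5B in TPM went from 0.506 ± 0.0877 to 2.71 ± 0.327 (SD, n = 3 each), which reversed their order. KDM5C, the third paralog measured, rose from 201 ± 8.86 to 282 ± 10.1 CPM (0.49, adjusted P = 4.04e-06). After NONO knockdown KDM5A had 0.10, which did not pass, and KDM5C 0.12 (adjusted P = 0.0487), a call that 8 of 15 alternatives did not make.

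KDM2A and KDM2B, which bind CpG islands and remove H3K36 dimethylation, were both called higher after NONO knockdown. KDM2A (ENSG00000173120, chromosome 11 from 67119269 to 67258087) went from 97.8, 89.4 and 88.3 CPM to 153, 161 and 157 CPM after NONO knockdown (0.77, SE 0.05, adjusted P = 1.33e-06). After PKM2 knockdown it went from 77.1, 71.9 and 75.9 CPM to 162, 167 and 147 CPM (1.08, SE 0.06, adjusted P = 1.8e-08). The knockdown libraries of both experiments thus ended at like levels. KDM2B rose from 51.0 ± 0.346 to 72.2 ± 3.19 CPM after NONO knockdown (SD, n = 3 each, 0.50, adjusted P = 3.38e-05) but had 0.00 after PKM2 knockdown. Its rise in TPM was smaller, from 33.5 ± 1.68 to 36.8 ± 2.41, and was not called there.

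Of the H3K9 demethylases of the KDM3 family, KDM3B fell from 87.6, 85.9 and 85.2 CPM to 57.2, 55.5 and 50.2 CPM after PKM2 knockdown (-0.67, SE 0.06, adjusted P = 1.03e-06). After NONO knockdown it was at 108, 112 and 106 CPM against 95.1, 94.1 and 104 CPM (0.15, SE 0.05, adjusted P = 0.041), a call that 8 of 15 alternatives did not make. KDM3A was called higher after NONO knockdown (0.22, adjusted P = 0.0253), a call that 9 of 15 alternatives made and that tests on TPM did not. It had 0.11 after PKM2 knockdown, and these changes did not differ past the threshold (-0.12, adjusted P = 0.295). KDM7A, a demethylase of H3K9 and H3K27 and the lowest gene of the list in TPM, fell from 10.3, 9.81 and 10.5 CPM to 7.17, 6.88 and 5.15 CPM after PKM2 knockdown (-0.67, SE 0.13, adjusted P = 0.000714). In the NONO experiment its first NC library, at 10.3 CPM, lay below the others at 16.6 and 15.5 CPM and within the range of the knockdown libraries (12.7, 11.4 and 9.51 CPM). The change there did not pass (-0.34, adjusted P = 0.153), and without that NC library it did (-0.51, adjusted P = 0.00109). PHF8, which removes H3K9 and H4K20 methylation, fell from 115 ± 1.48 to 88.9 ± 3.02 CPM after NONO knockdown (SD, n = 3 each, -0.37, adjusted P = 9.6e-05). After PKM2 knockdown it had -0.16 (adjusted P = 0.0362), a call that 8 of 15 alternatives did not make.

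The remaining JmjC genes took smaller steps. JMJD6, a lysyl hydroxylase also reported as an arginine demethylase, rose after PKM2 knockdown from 58.8 ± 3.53 to 81.7 ± 5.65 CPM (SD, n = 3 each, 0.47, adjusted P = 4.98e-05). It had -0.05 after NONO knockdown. KDM6A was called higher after PKM2 knockdown in counts (0.35, adjusted P = 0.000939), but in TPM its groups overlapped at 52.4 ± 10.1 and 49.9 ± 3.82 and the sign turned. KDM6B, the other H3K27 demethylase, was called after NONO knockdown (0.38, adjusted P = 0.0199), but not in 6 of 15 alternatives, among them all 3 tests on TPM. Of the KDM4 demethylases of H3K9 and H3K36, KDM4A was called higher after NONO knockdown (0.24, adjusted P = 0.0134) and KDM4C lower after PKM2 knockdown (-0.37, adjusted P = 0.0136). Each of these calls was made in 11 of 15 alternatives and in none of the tests on TPM. KDM4B was called in neither.

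**Figure D4:**
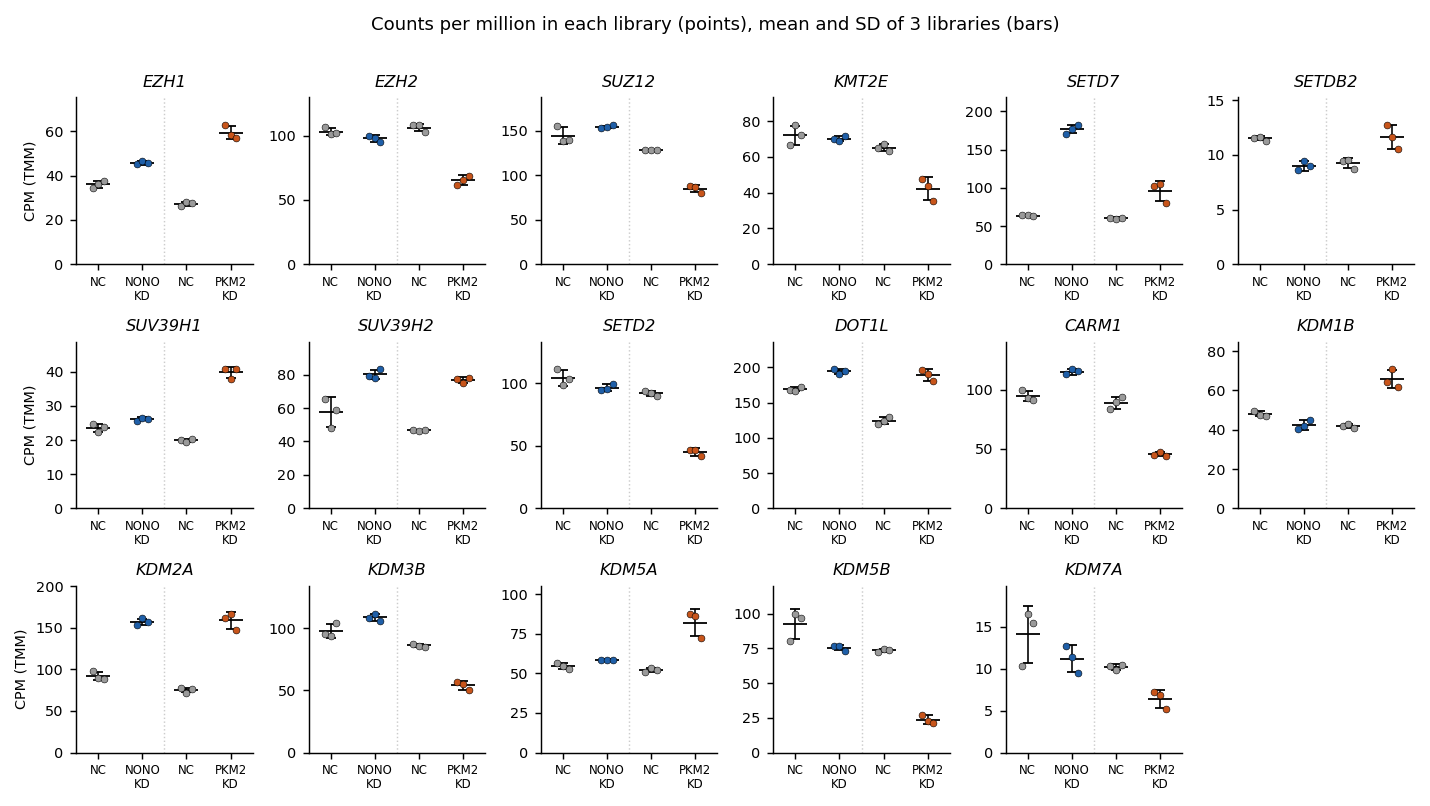
CPM (y axis, from 0) of the 17 enzymes with a called change of at least 1.5-fold in an experiment or between them, in each library (points) of the 4 groups (x axis), with the mean and SD of 3 libraries as bars. KDM5B drops to 23.7 CPM, SETD2 to 45.0 CPM and CARM1 to 45.7 CPM after PKM2 knockdown, KDM2A rises to 157 and 159 CPM after the knockdowns, and SETD7 reaches 177 CPM after NONO knockdown.

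Each knockdown was then set against the other as an interaction in 1 fit over the 12 libraries, with each change taken against its own NC group. The changes differed at an adjusted P below 0.05 for 23 of the 43 enzymes, 12 lower and 11 higher after PKM2 knockdown than after NONO knockdown. Over the 15995 genes tested, 53.1% differed, 27.4% lower and 25.7% higher, so the enzymes were again near the background. A difference of at least 1.5-fold was found for 12 enzymes, against 32.2% of all genes. The largest was that of KDM5B (-1.36, SE 0.12, adjusted P = 4.68e-08), followed by CARM1 (-1.26, SE 0.08, adjusted P = 8.47e-10) and SETD2 (-0.93, SE 0.08, adjusted P = 6.48e-08). SUV39H1 (0.83), KDM1B (0.82), EZH1 (0.76) and SETDB2 (0.67) differed most in the other direction. Of the 23 differences, 20 were called under all 18 alternatives. No test on TPM was among these 18, because none was run for the difference. The 20 include KDM6A, whose change after PKM2 knockdown turned its sign in TPM. They also include KDM2B, whose rise after NONO knockdown was not called in TPM.

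By their calls, 7 enzymes were higher in both experiments (EZH1, SETD7, SUV39H2, EHMT2, DOT1L, KDM2A and KDM5C). Of these, EZH1, EHMT2, DOT1L and KDM5C were not called in TPM after NONO knockdown. Lower in both were 2 (KDM5B and PHF8). Of 15 alternatives, 12 made the call of KDM5B after NONO knockdown and 7 that of PHF8 after PKM2 knockdown. Over all genes, 16.2% were called higher after NONO knockdown and 33.6% after PKM2 knockdown, and 17.2% and 34.7% lower. The share of all genes called alike in both experiments was not computed. CARM1 and KDM3B were called higher after NONO knockdown and lower after PKM2 knockdown, and SETDB2 and KDM1B the reverse. Of 15 alternatives after NONO knockdown, 14 made the call of CARM1, 7 that of KDM3B, 8 that of SETDB2 and 2 that of KDM1B. The difference between the knockdowns was past the threshold for each of these 4, from 0.67 to 0.82 for SETDB2 and KDM1B and from -0.83 to -1.26 for KDM3B and CARM1. For SUV39H2 it was 0.22 (SE 0.11, adjusted P = 0.11), so the data do not separate its rises. The experiments had separate NC groups, and their NC levels differed for some enzymes, for example EZH1 at 36 ± 1.59 and 27.3 ± 0.898 CPM (SD, n = 3 each). A difference between experiments other than the knockdown itself cannot be told apart from it.

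**Figure D5:**
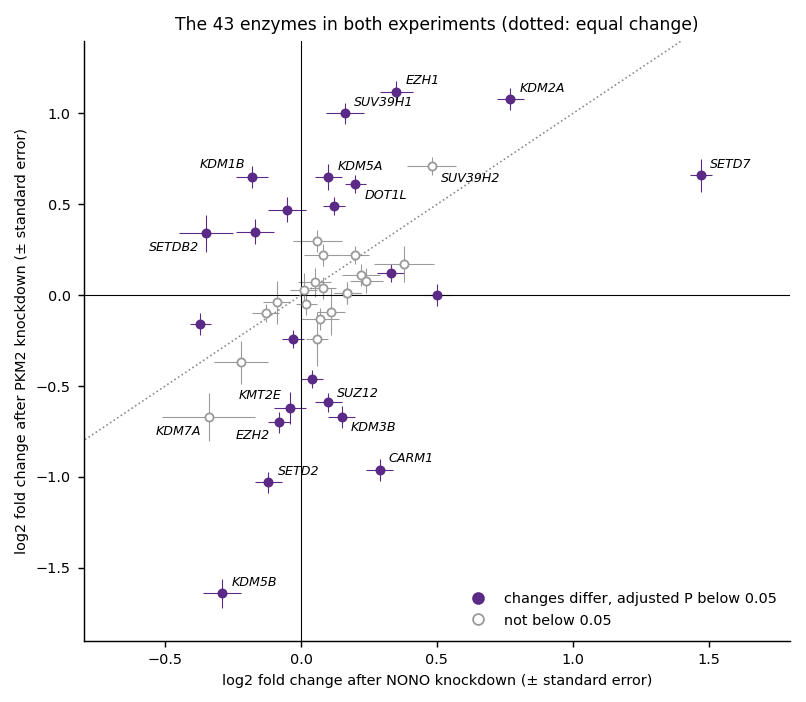
Log2 fold change after PKM2 knockdown (y axis) against that after NONO knockdown (x axis) for the 43 enzymes, with SEs; filled points are the 23 whose changes differed at an adjusted P below 0.05, and the dotted line marks equal change. KDM5B at -1.64 is the lowest point, CARM1 lies at 0.29 and -0.96, and SETD7 at 1.47 is the farthest to the right.

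Genes that work with the 43 enzymes were followed as 4 further lists of 55 genes, namely other methylation enzymes, complex partners, readers of methyl marks and genes of methyl donor supply. Of 54 tested, 25 were called after NONO knockdown (11 lower and 14 higher) and 42 after PKM2 knockdown (22 lower and 20 higher). These are 46.3% and 77.8% of the genes tested, against 33.4% and 68.4% of all genes. Their median log2 fold changes were 0.03 and -0.00. After NONO knockdown only PRMT6, an arginine methyltransferase of H3R2 (0.90, adjusted P = 0.000156), and CBX1, an HP1 protein that reads H3K9 methylation (-0.67, adjusted P = 1.67e-06), passed a fold of 1.5, which 7.94% of all genes passed. After PKM2 knockdown 18 did, against 38.5% of all genes. Among them were the PRC2 partners PHF19 (-1.20, adjusted P = 3.92e-09) and MTF2 (0.80, adjusted P = 1.4e-06), both of which bind methylated H3K36 or CpG islands and recruit PRC2. Of the COMPASS partners RBBP5 (0.84) and PAGR1 (from 21.2 to 35.9 CPM) rose, and DPY30 (-0.68), MEN1 (-0.71), HCFC1 (-0.79) and NCOA6 (-1.12) fell. The methyltransferases SMYD5 (1.15) and ASH1L (0.78) rose, and SETMAR (-1.31) and SMYD2 (-0.62) fell. The complex partner WIZ fell from 62.3 to 34.2 CPM. Of the readers, UHRF1 fell from 244 to 136 CPM and CBX8 rose from 15.5 to 27.7 CPM.

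Methyl donor supply also moved after PKM2 knockdown. AHCY, which clears S-adenosylhomocysteine, had a log2 change of -0.99 (adjusted P = 3.03e-08), and MAT2A, which makes S-adenosylmethionine, had -0.86 (adjusted P = 2.16e-08). MAT2B, the regulatory subunit, rose by 0.41. After NONO knockdown the values were 0.19 for AHCY, 0.18 for MAT2A, which did not pass, and 0.38 for MAT2B. The 3 genes summed to between 569 and 590 CPM in the NC libraries of the PKM2 experiment and to between 386 and 395 CPM after knockdown.

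Cell cycle genes moved beside the enzymes. Of 15 S-phase genes, 10 were called lower and 2 higher after PKM2 knockdown, with a median log2 fold change of -0.69, where 34.7% of all genes were called lower and 33.6% higher. PCNA had -2.12 and CCNE1, at 7.22 CPM in NC libraries, -4.92, whereas RRM2 rose from 162 to 272 CPM and CDC6 from 150 to 215 CPM. The list summed to between 2226 and 2295 CPM in NC libraries and to between 1768 and 1807 CPM after PKM2 knockdown. After NONO knockdown 10 were called higher and 1 lower, against 16.2% and 17.2% of all genes, and the sums went from between 2143 and 2481 CPM to between 2773 and 2822 CPM. Of 15 mitosis genes, 4 were called lower and 7 higher after PKM2 knockdown, and 9 were called higher after NONO knockdown, to be read against the same shares. Among the enzymes, EZH2 (-0.70) and SUZ12 (-0.59) fell after PKM2 knockdown, whereas SUV39H1 (1.00) and SUV39H2 (0.71) rose. The part of the cell cycle shifts in the changes of these and the other enzymes was not tested.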

How the data were processed

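RNA from 12 libraries of MDA-MB-231 cells was sequenced in 2 experiments. The authors deposited 1 table for each experiment with estimated counts and TPM values per gene and library, beside fold changes and p-values of their own, which were not used. Per the labels, their processing notes name fastp, HISAT2, StringTie, RSEM, DESeq2, edgeR, limma and hg19, without versions or roles. Counts were rounded, filtered (filterByExpr), scaled by TMM and tested with edgeR 4.0.16 in R 4.3.3 (quasi-likelihood, Benjamini-Hochberg adjustment over all genes), and a value was called at an adjusted P below 0.05. The standard error is the log2 fold change divided by the square root of F. TPM were tested with limma 3.58.1 on log2(TPM + 1), and DESeq2 1.42.0 was an alternative. Genes were described in full at an adjusted P below 0.05 and a fold of at least 1.5 in an experiment or in the difference. The members and lists were chosen with earlier results of these data known. Locations are from GENCODE 29 on GRCh38, a build other than the hg19 of the notes, and no coordinate was converted.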

Additional observations from a re-analysis of the deposited data

Results flagged for a closer look

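The change after PKM2 knockdown differed from that after NONO knockdown for 23 of the 43 enzymes by the interaction test in edgeR (adjusted P below 0.05), and 53.1% of all genes tested differed. Among methyltransferases and their subunits, the change after PKM2 knockdown was lower by the log2 differences of -0.64 for EZH2, -0.70 for SUZ12, -0.60 for KMT2E, -0.23 for SETD1A, -0.82 for SETD7, -0.93 for SETD2, -0.51 for NSD2, -0.23 for PRMT5 and -1.26 for CARM1. It was higher by 0.76 for EZH1, 0.67 for SETDB2, 0.83 for SUV39H1 and 0.39 for DOT1L. Among demethylases it was lower by -0.51 for KDM2B, -0.83 for KDM3B and -1.36 for KDM5B. It was higher by 0.82 for KDM1B, 0.29 for KDM2A, 0.54 for KDM5A, 0.35 for KDM5C, 0.50 for KDM6A, 0.51 for JMJD6 and 0.20 for PHF8. The experiments had separate NC groups, so the knockdown cannot be told apart from other differences between the experiments.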

How the results depend on the processing

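The log2 values followed here are the called ones and those of the enzymes described in full, 83 of 129 in the 3 comparisons. Of their 1320 recomputed values, 1174 kept their direction and side of the threshold, 120 lost and 10 gained a call, and 16 changed sign. After NONO knockdown 20 enzymes were called, 4 lower and 16 higher. Limma, which changes both test and unit, called 5 on log2(TPM + 1) (1 lower, 4 higher), 6 with a pseudocount of 0.1 (2 lower, 4 higher) and 4 without a filter (1 lower, 3 higher), and DESeq2 called 2 lower. Of all genes, limma called 19.2%, 19.3% and 6.21% in these settings. With a library left out the number ran from 12 to 25, lower calls from 2 to 5 and higher calls from 10 to 20. The highest, 25, came without the first NC library, and the share of all genes called ran from 23.5% to 41.2%. A fold of at least 1.5 left 2 (0 lower, 2 higher), and a fold above 2 with an unadjusted P below 0.05 left 1 (0 lower, 1 higher). After PKM2 knockdown limma without a filter called 9 higher, and 18 in all, against 27.9% of all genes. A fold of at least 1.5 left 16 (8 higher), and a fold above 2 left 4 (2 lower, 2 higher). Leaving out a library gave 24 to 33, against 62.4% to 68.3% of all genes. In the main test after PKM2 knockdown higher calls were 55.6% of all calls, and 66.7% with length and GC trends taken out. For the difference these folds left 12 (4 higher) and 2 (2 lower, 0 higher), and leaving out a library gave 22 to 25, against 48.1% to 52.7% of all genes. The cause of these shifts was not tested.

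Among these 83, signs changed as follows. Over all 129 values, the range over the alternatives spanned 0 for 32, 3 of them called and 29 not called. KMT2E after NONO knockdown was 0.02 without the second NC library, with a range of -0.08 to 0.02 over the libraries left out. After PKM2 knockdown KMT2C was 0.01 with the length trend and 0.01 with the length and GC trends taken out, and 0.09 without the third PKM2_KD library, and KMT2D was 0.06, 0.25 and 0.13. NSD1 was -0.10, -0.11 and -0.10 in the 3 tests on TPM and -0.04 without the first PKM2_KD library. KDM6A was -0.06 in each of the 3 tests on TPM. With length and GC trends taken out PHF8 was 0.01 and the difference of SETD1A 0.08. Over the libraries left out, KMT2C after PKM2 knockdown ran from -0.21 to 0.09, KMT2D from -0.13 to 0.13 and NSD1 from -0.04 to 0.14. No TPM test of the difference was run, since the tables were normalized separately.

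Replicate numbers did not pair the libraries. Deviations of same-numbered libraries correlated at -0.098 to 0.040 in the NONO experiment and at -0.063 to 0.031 in the PKM2 experiment, and 1 of 6 libraries in each correlated best with its own number. With the replicate number as a block 17, 28 and 22 enzymes were called after NONO knockdown, after PKM2 knockdown and for the difference. The shares of all genes were 29.3%, 67.8% and 51.5%.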
